A study of Mus musculus with 18 samples.

Results

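Muscle contraction is carried out by a small set of abundant proteins, and the genes examined here encode 46 of them. They were taken by symbol from the 24028 genes of the count table: 14 genes of the thick filament (myosin heavy and light chains and myosin-binding proteins), 14 of the thin filament (striated actins, tropomyosins, troponins, nebulin and tropomodulin), 12 of the Z-disc, the M-band, titin and desmin, and 6 of excitation-contraction coupling and energy supply. The cells were C2C12, a mouse myoblast line that proliferates in serum-rich medium and can be made to fuse into myotubes. Each of 3 clonal derivatives carried 1 doxycycline-inducible transgene: codon-altered mouse Dux, codon-altered human DUX4, or, as a control, firefly luciferase. Both factors bind DNA through a pair of homeodomains and act in the early embryo, and misexpression of DUX4 in skeletal muscle is linked to facioscapulohumeral dystrophy. Each line was grown in medium with puromycin, either with doxycycline at 2 ug/ml for 36 h (induced) or without it (uninduced), with 3 separate cultures per group and 18 libraries of polyadenylated RNA in all. Every transgene is represented by a single clone, so transgene and clone cannot be told apart in any difference between lines.

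In the sarcomere, myosin heads of the thick filament pull on actin of the thin filament. Troponin and tropomyosin hold the thin filament off until calcium binds troponin C. Z-discs, built on alpha-actinin, anchor the thin filaments, the M-band crosslinks the thick filaments, and titin spans from one to the other. Calcium comes from the sarcoplasmic reticulum: the voltage sensor (Cacna1s) opens the release channel (Ryr1), calsequestrins store the ion and the pump Atp2a1 takes it back. Proliferating myoblasts hold little of this machinery apart from tropomyosins and desmin, and myogenic factors with MEF2 proteins switch on most of it as the cells leave the cell cycle and fuse.

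Library totals ranged from 11010586 to 17179642 counts. Values are CPM, counts relative to library size on the standard CPM scale with edgeR's TMM factors, with the SD over n = 3 libraries. Changes are log2 fold changes with their standard error (SE) from the edgeR quasi-likelihood test, adjusted by Benjamini-Hochberg over 13602 genes, and a gene is called higher or lower at an adjusted p under 0.05. Of the 46 genes, 42 were counted well enough to be tested. Myl2 and Myl3, the slow and ventricular myosin light chains, had no count in any library, and Mybpc2 and Casq1 were too low. The test population was set largely by the luciferase line: 42 genes passed the filter on its libraries alone, 27 on those of the mouse Dux line and 25 on those of the human DUX4 line, and 12 passed only through luciferase libraries. The libraries numbered 1 of the mouse Dux line stood apart. Chi-square per degree of freedom between induced library 1 and the other induced libraries of that line was 34 and 36.4, against 2.14 between those other libraries. For the uninduced library with the same number it was 5.16 and 5.25 against 1.26, and the remaining pairs of replicates in the study lay between 1.34 and 2.79. In bulk RNA, fewer cells with an active contractile programme and less RNA per cell cannot be told apart.

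Promoter sequence is shown for 5 genes that the results turn on. Pdlim3 and Myl1 were higher after induction of either factor, Nrap moved in opposite directions, Tnnt2 fell most under DUX4, and Acta1 is the skeletal actin gene of the differentiated sarcomere. The sequences are the bases before the RefSeq start (GRCm38.p6), 5′ to 3′ on the gene's strand, with E-boxes (CANNTG, the core bound by myogenic basic helix-loop-helix factors) and the CArG box (the serum response factor element) in capitals. For Pdlim3 the last 26 bases before the start lie in an annotated exon and are left out, and for Myl1 only the CAGCTG form of the E-box with its flanks is shown.
Nrap, chr19:56390039-56390288 (minus strand): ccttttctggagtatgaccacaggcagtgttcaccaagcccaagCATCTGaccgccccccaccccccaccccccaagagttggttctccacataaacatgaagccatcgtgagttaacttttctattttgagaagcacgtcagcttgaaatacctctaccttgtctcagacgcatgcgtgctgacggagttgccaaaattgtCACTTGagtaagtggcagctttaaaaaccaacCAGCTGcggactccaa
Pdlim3, chr8:45885237-45885460 (plus strand): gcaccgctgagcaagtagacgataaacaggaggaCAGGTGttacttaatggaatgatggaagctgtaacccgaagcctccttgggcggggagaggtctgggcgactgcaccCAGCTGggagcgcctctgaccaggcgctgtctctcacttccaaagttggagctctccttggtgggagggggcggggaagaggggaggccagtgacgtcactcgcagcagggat
Tnnt2, chr1:135836084-135836333 (plus strand): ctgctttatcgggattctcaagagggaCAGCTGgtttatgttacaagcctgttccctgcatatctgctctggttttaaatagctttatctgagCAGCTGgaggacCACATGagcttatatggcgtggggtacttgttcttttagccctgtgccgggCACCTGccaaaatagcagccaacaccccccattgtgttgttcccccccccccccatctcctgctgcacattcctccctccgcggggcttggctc
Acta1, chr8:123894776-123895025 (minus strand): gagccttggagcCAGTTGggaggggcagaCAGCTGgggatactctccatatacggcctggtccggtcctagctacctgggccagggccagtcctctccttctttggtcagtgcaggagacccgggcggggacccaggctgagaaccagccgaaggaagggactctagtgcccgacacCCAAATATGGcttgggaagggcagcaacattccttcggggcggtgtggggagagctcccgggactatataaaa
Myl1, chr1:66945265-66945290 (minus strand): gtacgtctgtCAGCTGtcaccaaacc
The CAGCTG E-box lay 16 bases before the start of Nrap, 139 before that of Pdlim3, 221 before that of Acta1 and 224 before that of Myl1. Tnnt2 held it at 223 and at 157 bases before its start. Over the 45 promoter windows of 39 of the 46 genes, 250 bases each and read on both strands, 80% held CANNTG and 42.2% held CAGCTG. The shares among all 32817 windows of the same length were 66.2% and 13%. CAGCTG matches are included in the CANNTG count. A CArG box was found in 15.6% of the windows, against 1.47% of all, and a MEF2 element in 2.22%, against 0.509%. TGATTCAAT and TAATCTAAT, letters of the double-homeobox binding motifs, matched none of the members' windows and 0.11% and 0.104% of all windows. A match describes letters in this window and is no measured binding site.

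The 3 clones differed widely in contractile genes before any induction. The luciferase line expressed nearly all of them at the highest level, and the mouse Dux and human DUX4 lines held most of them at low levels. Summed over the 46 genes, the uninduced luciferase libraries stood between 7244 and 7408 CPM, the mouse Dux libraries between 2500 and 2536, and the human DUX4 libraries between 2869 and 2952. Most of the sum in the latter lines came from Tpm1, Tpm2, Tpm3 and Des. The remaining 42 genes summed to 2871 to 3013 CPM in luciferase libraries, 241 to 249 in mouse Dux libraries and 198 to 207 in human DUX4 libraries. In the uninduced mouse Dux line, 41 of 42 tested genes were lower than in the luciferase line and 1 was higher, against 33.1% lower and 32.2% higher of all genes tested. The median difference was -4.76 on the log2 scale. In the uninduced human DUX4 line 39 were lower and 3 higher, against 37% and 36% of all genes, with a median of -5.28, or -5.13 with low-count genes set at their bounds. The 12 genes that passed only through luciferase libraries entered through the group in which they were high. Among the 27 that passed on mouse Dux libraries alone, 26 were lower and 1 higher (median -3.02), and among the 25 that passed on human DUX4 libraries alone, 22 were lower and 3 higher (median -4.15). The 2 comparisons share the luciferase libraries. The median of all genes tested was 0.00 in the first and -0.01 in the second.

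**Figure D1:**
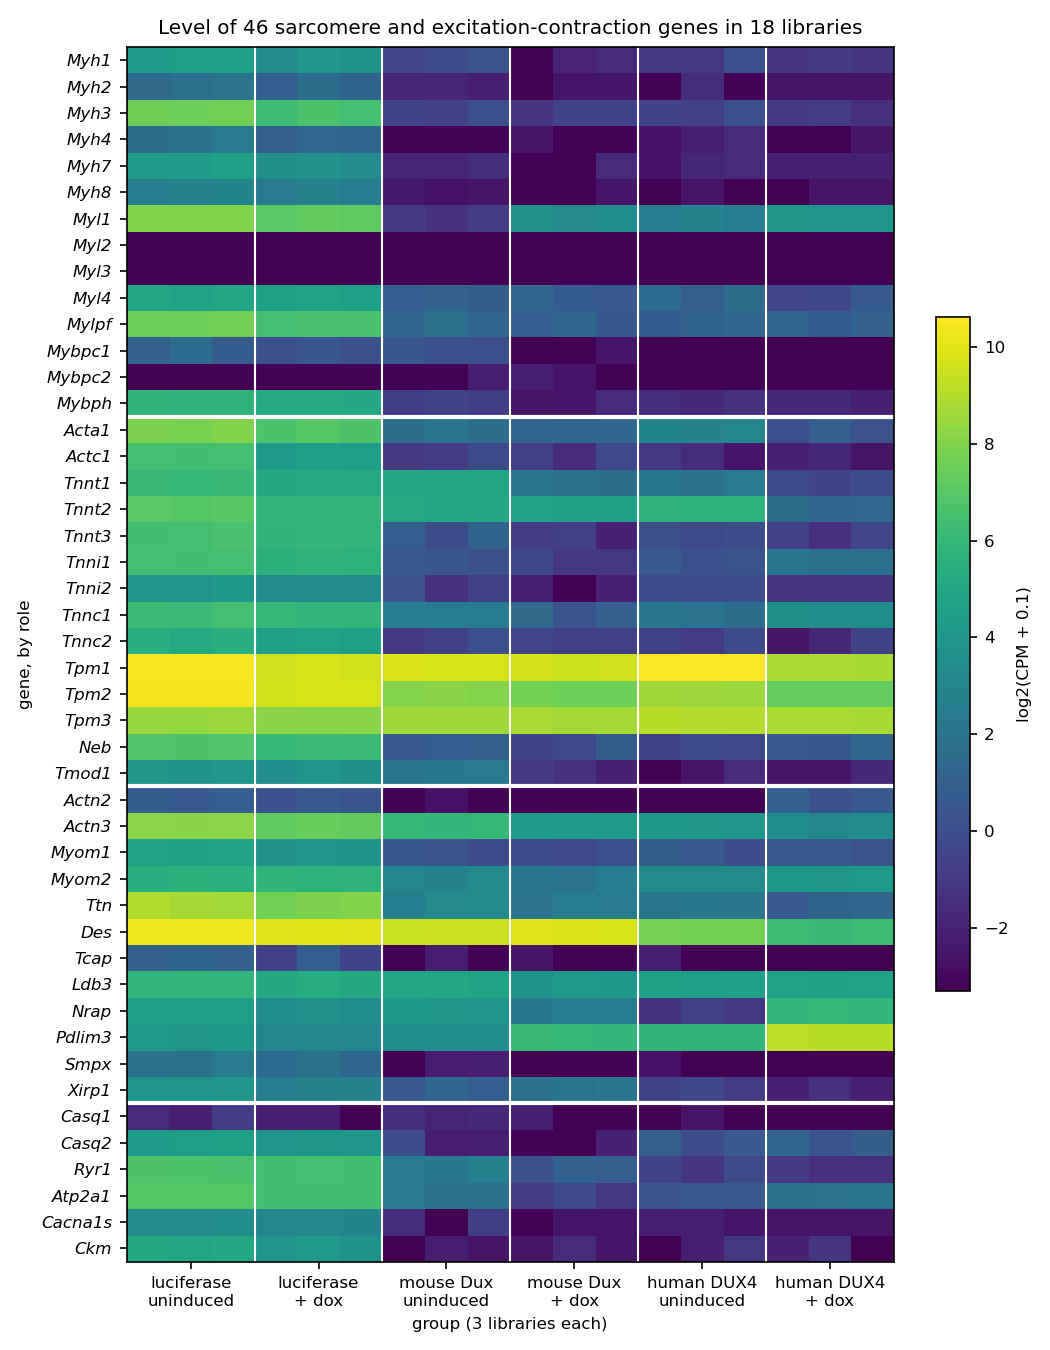
Colour gives log2(CPM + 0.1) of each of the 46 genes (rows, grouped by role between the thick white lines) in each of the 18 libraries (columns, 3 per group). The luciferase columns are bright across nearly all rows, with a 42-gene sum without the tropomyosins and desmin of 2871 to 3013 CPM uninduced, whereas tropomyosins and Des are bright in every group.

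Among thick-filament genes, Mylpf, the fast regulatory light chain, had the highest level per kb of exon, averaged over all 18 libraries. Its uninduced libraries read 189, 188 and 202 CPM in the luciferase line, 2.55, 3.36 and 2.23 in the mouse Dux line and 1.56, 2.05 and 2.34 in the human DUX4 line. The luciferase libraries were far above both other lines, which overlapped each other. Myl1, the fast essential light chain, read 252, 255 and 256 CPM in luciferase libraries, 0.424, 0.29 and 0.446 in mouse Dux libraries and 5.94, 7.05 and 6.26 in human DUX4 libraries. No groups overlapped for Myl1, and its log2 difference from the luciferase line was -9.35 in the mouse Dux line (SE 0.14, adjusted p = 2.39e-20) and -5.30 in the human DUX4 line (SE 0.0929, adjusted p = 1e-19).

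The myosin heavy chain in use in the luciferase line was embryonic Myh3, the first isoform of a new myotube. It stood at 191, 184 and 201 CPM there, at 0.594, 0.58 and 0.956 in mouse Dux libraries and at 0.626, 0.513 and 1.06 in human DUX4 libraries. The factor lines overlapped each other, and each differed from the luciferase line by -8.05 on the log2 scale. Per kb of exon, Myh3 made up 80.7% ± 1.35 (SD, n = 3) of the 6 heavy-chain genes in uninduced luciferase libraries. Adult fast Myh1 and slow Myh7 made up 8.64% ± 0.788 and 6.34% ± 0.12. Shares are not compared with the other lines, where the family held 91 and 76 counts in the 3 uninduced libraries together.

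The perinatal gene Myh8 read 5.88, 6.83 and 7.73 CPM in uninduced luciferase libraries and had 3 counts in the mouse Dux line and 1 in the human DUX4 line. Its ratio to the luciferase line was 0.00993 (95% exact interval 0.00204 to 0.0293) and 0.0033 (8.33e-05 to 0.0185). Adult fast Myh4 read 3.17, 3.78 and 5.04 CPM in luciferase libraries and 0.0626, 0.128 and 0.226 in human DUX4 libraries, and had no count in mouse Dux libraries, at least 58.7-fold lower. Intervals and floors of 3 counts per group cover counting error only. The myosin-binding proteins split between lines. Mybph read 55.4, 52.8 and 54.6 CPM in luciferase libraries, 0.509, 0.638 and 0.51 in mouse Dux libraries and 0.25, 0.192 and 0.302 in human DUX4 libraries. Its antisense neighbour Adora1 stood at 1.4 ± 0.144 CPM in luciferase libraries, with 2 counts in the mouse Dux line and none in the human DUX4 line. Mybpc1, the slow form, read 1.96, 2.8 and 1.59 CPM in luciferase libraries and 1.27, 1.04 and 0.956 in mouse Dux libraries, and had no count in human DUX4 libraries. For Mybpc1 the mouse Dux line was lower than the luciferase line (-0.98, SE 0.263), and the human DUX4 line was at least 31.9-fold lower than the luciferase line.

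Thin-filament genes divided into a shared set and a luciferase-high set. Tpm2, a muscle tropomyosin, was the highest thin-filament gene per kb, averaged over all 18 libraries. It read 1346, 1342 and 1348 CPM in uninduced luciferase libraries. In uninduced mouse Dux libraries it read 259, 278 and 267, and in human DUX4 libraries 392, 377 and 375. No groups overlapped, and both factor lines were lower. Tpm1 and Tpm3, which also serve the cytoskeleton of non-muscle cells, were the exceptions: Tpm1 was higher in the human DUX4 line than in the luciferase line (0.15, SE 0.0446) and lower in the mouse Dux line (-0.67, SE 0.0448). Tpm3 was higher in both, by 0.62 and 0.15. In contrast, Actc1, the cardiac actin that embryonic skeletal muscle also uses, read 89.3, 84 and 88.4 CPM in luciferase libraries, 0.424, 0.464 and 0.765 in mouse Dux libraries and 0.375, 0.256 and 0.0754 in human DUX4 libraries. Its luciferase level was far above the rest, with log2 differences of -7.26 and -8.43, and the mouse Dux libraries lay just above the human DUX4 libraries without overlap.

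Acta1, skeletal actin, read 230, 222 and 250 CPM in luciferase libraries, 3.06, 4.29 and 3.12 in mouse Dux libraries and 7.88, 7.37 and 8 in human DUX4 libraries. All 3 groups were separate, with the human DUX4 line above the mouse Dux line. Every troponin gene was highest in the luciferase line. Tnnt2, of cardiac and embryonic muscle, read 132, 119 and 128 CPM in luciferase libraries, 36.7, 31.6 and 34.7 in mouse Dux libraries and 54.1, 52.4 and 50.8 in human DUX4 libraries. Slow Tnnt1 read 68.5, 64.5 and 69.8 CPM in luciferase libraries, 34.6, 29.7 and 30.8 in mouse Dux libraries and 4.63, 3.78 and 4.98 in human DUX4 libraries. The human DUX4 line was above the mouse Dux line for Tnnt2 and below it for Tnnt1. Fast Tnnt3 stood at 92.7 ± 6.92 CPM in luciferase libraries against 1.54 ± 0.601 and 0.892 ± 0.116. Tmod1, which caps the pointed end of the thin filament, read 16.8, 14.2 and 16.2 CPM in luciferase libraries, 4.07, 4.93 and 5.29 in mouse Dux libraries and 0, 0.0641 and 0.226 in human DUX4 libraries. The mouse Dux line was in between, 5.63 above the human DUX4 line on the log2 scale (SE 0.394, adjusted p = 2.38e-10). Tmod1 overlaps the antisense gene Tstd2, at 43.5 ± 1.05 CPM in luciferase libraries, 28.9 ± 2.17 in mouse Dux libraries and 23.8 ± 2.22 in human DUX4 libraries, and the part of its reads in the Tmod1 counts was not tested.

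Des, the muscle intermediate filament, was present in every line. Averaged over all 18 libraries, Des had the highest level per kb among Z-disc and associated genes. Myoblasts are known to express it. It read 1293, 1284 and 1269 CPM in luciferase libraries, 690, 732 and 732 in mouse Dux libraries and 220, 209 and 208 in human DUX4 libraries, with no overlap. Nrap, a scaffold of nascent myofibrils, read 23.4, 21.5 and 22.1 CPM in luciferase libraries, 17, 16.8 and 15.9 in mouse Dux libraries and 0.313, 0.513 and 0.377 in human DUX4 libraries. Its human DUX4 libraries were the low ones, and the log2 difference of the mouse Dux line from them was 5.34 (SE 0.161, adjusted p = 7.41e-16). Pdlim3, a PDZ-LIM protein that binds alpha-actinin at the Z-disc, went the other way, at 17.8, 16.8 and 17.5 CPM in luciferase libraries, 10.9, 11.5 and 11.4 in mouse Dux libraries and 55.7, 55.5 and 54.9 in human DUX4 libraries. Pdlim3 was 1 of the 3 genes higher in the human DUX4 line than in the luciferase line (1.67, SE 0.052). Titin (Ttn) stood at 446 ± 51.3 CPM in luciferase libraries, 8.59 ± 1.94 in mouse Dux libraries and 4.52 ± 0.194 in human DUX4 libraries. Sarcomeric alpha-actinin was nearly all Actn3, with Actn2 making up 0.426% ± 0.0242 of the pair per kb in uninduced luciferase libraries. Tcap, which caps titin at the Z-disc, Smpx and Actn2 itself had no more than 4 counts each in the uninduced libraries of either factor line. Myom1, Myom2, Ldb3 and Xirp1 were also lower in both, with log2 differences of -4.54, -2.49, -0.97 and -3.02 in the mouse Dux line and -4.26, -2.28, -1.31 and -4.63 in the human DUX4 line.

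The calcium-handling genes were low in both factor lines. Atp2a1, the fast-muscle calcium pump, was the highest of this role per kb, averaged over all 18 libraries. It read 124, 121 and 121 CPM in luciferase libraries, 5.52, 3.65 and 3.7 in mouse Dux libraries and 1.19, 1.41 and 1.43 in human DUX4 libraries. The 3 groups did not overlap. Ryr1 was 102 ± 4.52, 5.54 ± 1.13 and 0.592 ± 0.256 CPM in that order. Ckm, muscle creatine kinase, read 34.9, 30.3 and 34.3 CPM in luciferase libraries and held 3 counts in the mouse Dux line and 7 in the human DUX4 line. The ratio of the mouse Dux to the luciferase line was 0.00202 (95% exact interval 0.000417 to 0.00592), and the human DUX4 line differed from it by -7.66 on the log2 scale (SE 0.285).

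Between the factor lines themselves, 16 genes were higher in the uninduced mouse Dux line and 9 in the human DUX4 line, against 33.1% and 33.3% of all genes, with a median of 0.55. By fitted value the 5 largest called differences were Mybpc1 (at least 16-fold higher in the mouse Dux line), Tmod1, Nrap, Myl1 (-4.05, SE 0.233) and Myh4, with 6 counts in the human DUX4 libraries and none in the others (at least 1.99-fold lower), so that the place of Myh4 rests on 6 counts. Ryr1 came next (3.24, SE 0.253). The call for Myh4 was lost without uninduced human DUX4 library 3 (edgeR adjusted p = 0.068), mouse Dux library 2 (0.057) or mouse Dux library 3 (0.0522). Actc1, Mylpf and Mybph also lost their calls in this comparison when single libraries were left out.

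**Figure D2:**
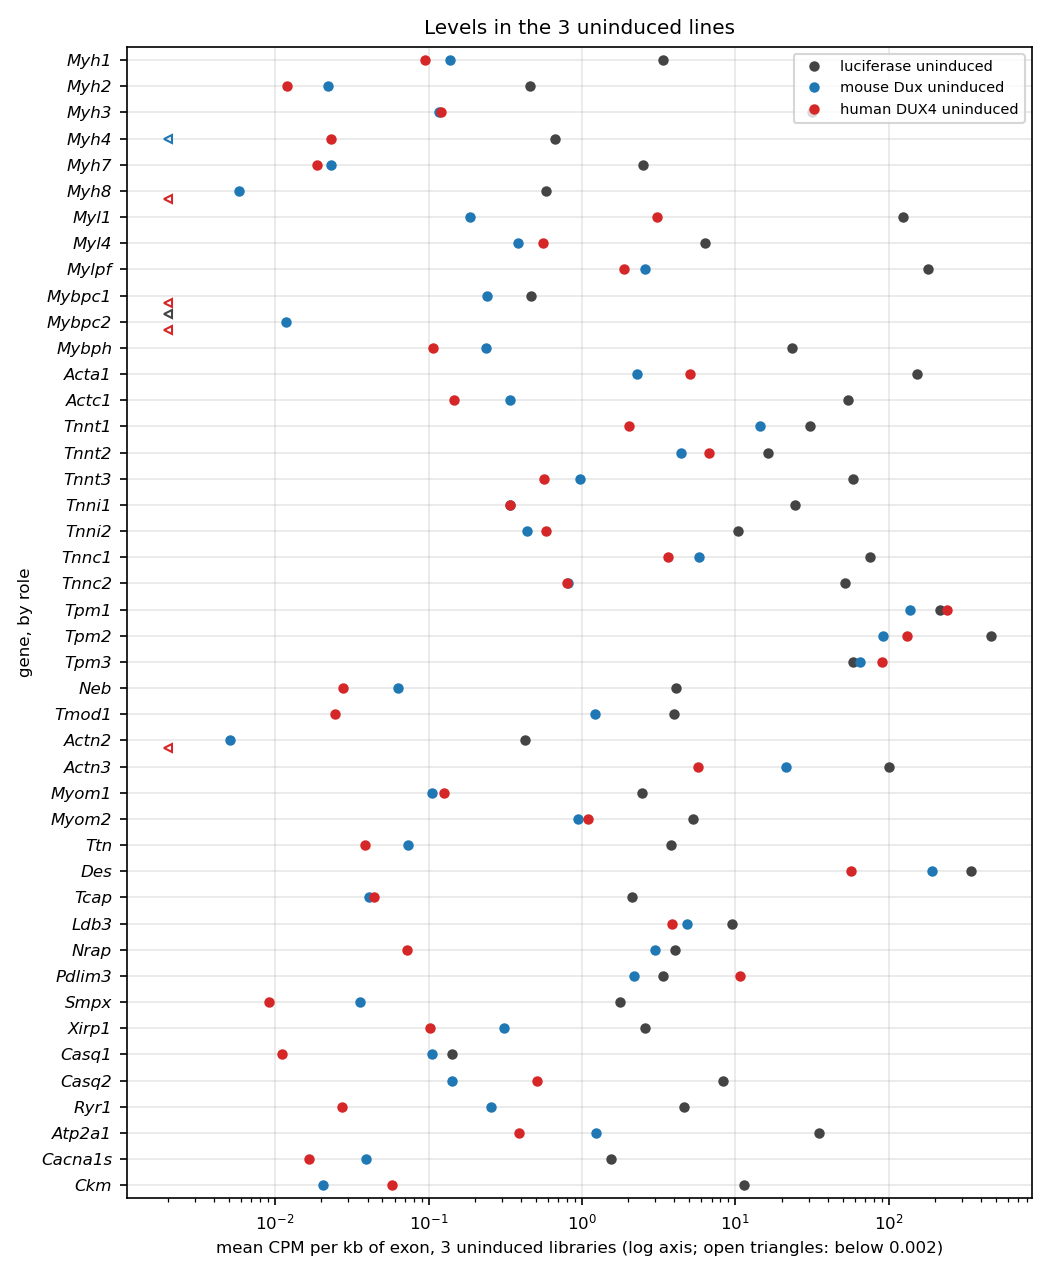
Points give the mean CPM per kb of exon (log axis) over the 3 uninduced libraries of each line for the 44 genes with a count in an uninduced library. The luciferase line (dark grey) is the highest for 40 of them, and the exceptions are Tpm1, Tpm3, Pdlim3 and the barely counted Mybpc2.

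Other genes of muscle differentiation, from lists drawn up with earlier results of these data known, also differed between the lines. Myog, the factor of the commitment to differentiate, read 194 ± 5.83 CPM in uninduced luciferase libraries, 2.32 ± 0.612 in mouse Dux libraries and 1.24 ± 0.317 in human DUX4 libraries. Mef2c, a MEF2 factor of differentiating muscle, read 29.8 ± 1.33 CPM and had no count in the other uninduced lines, at least 443-fold and 444-fold lower. For the list counts here, 33.1% of all tested genes were lower and 32.2% higher in the mouse Dux line. In the human DUX4 line these shares were 37% and 36%. Of 17 myogenic regulators and fusion genes, 16 were tested, of which 13 were lower and 2 higher in the mouse Dux line, and 14 were lower in the human DUX4 line. Among 34 sarcomere genes outside the 46, 28 were tested: 22 were lower and 3 higher in the mouse Dux line (median -2.79), and 24 lower and 2 higher in the human DUX4 line (median -4.32). Markers of other cells moved with the lines too, and their part was not tested. Summed smooth muscle markers were 6339 to 6487 CPM in uninduced luciferase libraries, 2999 to 3062 in mouse Dux and 2321 to 2382 in human DUX4 libraries. Of these 9 markers, Des among them, 8 were tested. Myoblast markers, 10 of 10 tested and Des and Myod1 among them, summed to 4056 to 4108, 2155 to 2232 and 1377 to 1438 CPM. Against the luciferase line, 8 were lower and 2 higher in the mouse Dux line, and 9 were lower in the human DUX4 line. Cardiac markers, 5 of 11 tested, summed to 24.2 to 25.9 CPM in luciferase, 19.6 to 21.4 in mouse Dux and 24.1 to 29.2 in human DUX4 libraries, with Hcn4 at 0 in all 3 lines and Myl7 at 0 in the luciferase and mouse Dux lines. Nkx2-5, a cardiac homeobox factor, was higher in both factor lines, at 0.129 ± 0.075 CPM in luciferase, 6.22 ± 0.914 in mouse Dux and 16.7 ± 1.46 in human DUX4 libraries. Myh6, the atrial myosin heavy chain, had 276 counts in luciferase libraries, 3 in mouse Dux libraries (ratio 0.0117, 95% exact interval 0.0024 to 0.0346) and 1 in human DUX4 libraries (0.0039, 9.83e-05 to 0.0219). Cdh5, an endothelial cadherin, stood at 25.4 ± 1.8 CPM in luciferase libraries and at 0 in the other uninduced lines, while Epcam was at 0 in all of them. Nkx2-5, Myh6, Cdh5 and the markers named at 0 here were chosen after their values were seen.

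Most of these genes fell with doxycycline in the luciferase line, where no factor is induced. Of 42 tested, 34 fell and 1 rose, against 16.4% lower and 14.7% higher of all genes tested, and the median change was -0.70 against 0.00 for all genes. The sum over the 46 genes went from 7244 to 7408 CPM without doxycycline to 4454 to 4832 CPM with it. Every role took part: 8 of 11 tested thick-filament genes, 13 of 14 thin-filament genes, 9 of 12 Z-disc, M-band, titin and desmin genes, and 4 of 5 calcium and energy genes fell. All 42 passed the filter on luciferase libraries alone, and this is the control response for the other lines.

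Actc1 fell most. Its libraries read 89.3, 84 and 88.4 CPM without doxycycline and 19.4, 23.3 and 21.5 with it, so that it changed by -2.03 on the log2 scale (SE 0.0825, adjusted p = 4.68e-13). The groups were far apart. It was the only gene past 2 on the log2 scale, and the other 33 fell by 0.24 to 1.20. Myh3 went from 192 ± 8.38 to 90 ± 11.4 CPM, Acta1 from 234 ± 14.5 to 111 ± 11.8, Tnnt2 from 126 ± 6.61 to 58.8 ± 1.17 and Ckm from 33.2 ± 2.46 to 15.7 ± 2.24. Each of these fell by 1.07 to 1.10 on the log2 scale. Ryr1 (-0.24), Casq2 (-0.50), Tcap (-1.10) and Mybpc1 (-0.95) were called lower but lost the call when single luciferase libraries were left out. The 1 gene that rose, the M-band gene Myom2, did so by 0.19 (SE 0.0706, adjusted p = 0.0474), and 4 of the 6 other analyses that kept every library did not call it.

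Of 16 tested regulators and fusion genes, 8 fell and 2 rose. The shares of all genes tested, for this and the next lists, were 16.4% lower and 14.7% higher. Myog went from 194 ± 5.83 to 118 ± 5.81 CPM and the fusion gene Tmem8c (myomaker) from 77.7 ± 4.59 to 47.3 ± 2.5, log2 fold changes of -0.72, SE 0.0829 and -0.72, SE 0.0712. Of 28 tested sarcomere genes outside the 46, 20 fell. Smooth muscle markers moved alongside: 6 of 8 tested fell and their sum went from 6339 to 6487 CPM to 3066 to 3423 CPM, with Cnn1, smooth muscle calponin, at -1.97, SE 0.082. The part of these cells in the fall was not tested.

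After induction of mouse Dux more contractile genes fell than rose. Of 42 tested genes, 24 fell and 5 rose, against 34.8% lower and 34.1% higher of all genes. Among the 27 that passed the filter on mouse Dux libraries alone, 20 fell and 5 rose. Scaling by library size alone turned the split of all called genes from 4643 higher and 4728 lower to 3199 and 6922, with a median over all genes of -0.25. Under it 4 of the 46 genes rose and 25 fell. The median log2 fold change was -0.88, or -0.85 with low-count genes at their bounds, against -0.01 for all genes. The sum over the 46 genes was 2500 to 2536 CPM before and 2473 to 2696 after, and the tropomyosins and Des held most of it. Without those, it went from 241 to 249 CPM to 170 to 179 CPM. As a share of all counts, without TMM factors, the 46 genes held 0.268%, 0.27% and 0.268% before. They held 0.242%, 0.228% and 0.222% after, without overlap. Without both libraries numbered 1, the ones that stood apart, 21 fell and 5 rose.

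The gene that rose most was in the thick filament. Myl1 read 0.424, 0.29 and 0.446 CPM uninduced and 13.2, 9.46 and 11.1 induced, so that it changed by 4.87 on the log2 scale (SE 0.208, adjusted p = 1.02e-13). Every induced library was far above every uninduced one, yet below the 254 ± 2.23 CPM of the uninduced luciferase line. Myh1 went from 0.679, 0.812 and 1.15 CPM to 0, 0.15 and 0.22 (-2.83, SE 0.707, adjusted p = 0.00155). Mybph went from 0.509, 0.638 and 0.51 CPM to 0.0658, 0.0751 and 0.22 (-2.16, SE 0.426). Mybpc1 fell from 48 counts over the 3 uninduced libraries to 1, a ratio of 0.0221 (95% exact interval 0.000548 to 0.129). Groups did not overlap in any of these. Mylpf was called lower (-0.61, SE 0.212, adjusted p = 0.0166), but its groups overlapped, from 2.55, 3.36 and 2.23 CPM to 1.71, 2.4 and 1.32. The call was lost without induced library 3 or uninduced library 2, and in a fit to the 2 groups alone. Myh3 and Myl4 were not called (-0.52 and -0.01), and Myh2, Myh4, Myh7 and Myh8 had 0 to 3 counts in at least 1 group.

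Thin-filament genes fell in 11 of 14 cases and rose in 1, against 34.8% lower and 34.1% higher of all genes tested. Tmod1 fell most, from 4.07, 4.93 and 5.29 CPM uninduced to 0.395, 0.3 and 0.147 induced (-4.04, SE 0.32, adjusted p = 1.23e-09), while its antisense neighbour Tstd2 read 28.9 ± 2.17 and 23.3 ± 2.84 CPM. Tnnt1, slow troponin T, read 34.6, 29.7 and 30.8 CPM uninduced and 4.47, 3.38 and 3.22 induced (-3.08, SE 0.106, adjusted p = 3.58e-15), with a wide gap between groups. Fast troponin I, Tnni2, went from 1.1, 0.29 and 0.573 CPM to 0.132, 0 and 0.147 (-2.58, SE 0.61, adjusted p = 0.00098). In all of these, every induced library lay below every uninduced one. Tnnt3 (-1.96), Tnnc1 (-1.57) and Tnni1 (-1.27) also fell, whereas Tnnc2 was not called. The tropomyosins moved little: -0.15 for Tpm1, -0.45 for Tpm2 and 0.15 for Tpm3, the only thin-filament gene that rose. Scaling by library size alone turned Tpm3 to -0.09 (adjusted p = 0.0452), and the calls for Tpm1 and Tpm3 were lost in a fit to the 2 groups alone. Acta1 (-0.55, SE 0.203, adjusted p = 0.0219) lost its call without induced library 1 or uninduced library 2. Neb (-0.80, adjusted p = 0.0278) lost it without any of 4 libraries, induced library 1 among them.

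Of the 12 Z-disc, M-band, titin and desmin genes 3 rose and 5 fell, near the 34.1% higher and 34.8% lower of all genes tested. Pdlim3 read 10.9, 11.5 and 11.4 CPM uninduced and 66.8, 61.6 and 59.9 induced (2.48, SE 0.0555, adjusted p = 4.88e-18). Induced libraries were all far higher, and above the 17.4 ± 0.53 CPM of the uninduced luciferase line. Xirp1, an actin-binding protein of the costamere and intercalated disc, rose from 1.8 ± 0.486 to 3.96 ± 0.608 CPM (1.09, SE 0.18). Des rose from 690, 732 and 732 CPM to 988, 960 and 894 (0.40, SE 0.0521). Both rises were clear of the spread between libraries. Actn3 fell by 1.65 on the log2 scale, Nrap by 1.61, Ldb3 by 0.89, Myom2 by 0.87 and Ttn by 0.83. Actn2, Smpx and Tcap had at most 4 counts in either group.

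Of 5 tested calcium and energy genes 4 fell, and 2 of them passed the filter on mouse Dux libraries alone. Atp2a1 went from 5.52, 3.65 and 3.7 CPM to 0.46, 0.751 and 0.366 (-2.98, SE 0.23, adjusted p = 8.29e-10). Ryr1 went from 5.54 ± 1.13 to 1.57 ± 0.511 CPM (-1.84, SE 0.206). The groups of both genes were separate. The others rested on few counts. Casq2, a calsequestrin, went from 15 counts to 2, a ratio of 0.141 (95% exact interval 0.0157 to 0.608). Its libraries read 0.934, 0.116 and 0.127 CPM uninduced and 0, 0 and 0.147 induced, so that uninduced library 1 carried most of the counts. The fitted value of -2.63 became -1.22 without that library and -0.67 without both libraries numbered 1, and was then not called. Cacna1s, the voltage sensor, went from 11 counts to 2, a ratio of 0.193 (0.0208 to 0.883), with libraries at 0.255, 0 and 0.51 CPM and 0, 0.0751 and 0.0733. Its groups overlapped, DESeq2 gave an adjusted p of 0.0506, and the fitted value of -2.19 became -1.01 without uninduced library 3 (edgeR adjusted p = 0.454) and -1.63 without both libraries numbered 1 (0.149).

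After induction of human DUX4 contractile genes moved in both directions. Of 42 tested genes 9 rose and 12 fell, against 34.4% higher and 33.1% lower of all genes, and among the 25 that passed the filter on human DUX4 libraries alone 9 rose and 11 fell. The median change was -0.55, against 0.00 for all genes. The sum over the 46 genes went from 2869 to 2952 CPM to 1868 to 1896 CPM, with Tpm1, Tpm2 and Des lower. The 42 genes other than the tropomyosins and Des went from 198 to 207 CPM to 723 to 742 CPM, of which Pdlim3 alone made up 567 ± 6.93 CPM.

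The Z-disc held the 3 largest rises. Nrap read 0.313, 0.513 and 0.377 CPM uninduced and 57.7, 61.4 and 60.7 induced (7.19, SE 0.131, adjusted p = 5.52e-19). All induced libraries were high, above the 22.3 ± 0.948 CPM of the uninduced luciferase line. Nrap overlaps the antisense gene Habp2, which had no count in any library. Pdlim3 read 55.7, 55.5 and 54.9 CPM uninduced and 574, 560 and 566 induced (3.35, SE 0.0472, adjusted p = 2.31e-20). Actn2, a sarcomeric alpha-actinin, had no count in the uninduced libraries and read 1.95, 0.99 and 1.41 CPM after induction. With 64 counts against 0, it was at least 21.5-fold higher, and its induced level was near the 1.62 ± 0.102 CPM of uninduced luciferase cells. Actn2 then made up 9.71% ± 1.95 of the 2 sarcomeric alpha-actinin genes per kb, against 0.604% ± 0.0584 in induced luciferase libraries. The other gene, Actn3, averaged 10.1 CPM in induced human DUX4 libraries and 156 in induced luciferase libraries. Myom2 rose from 9.61 ± 0.0608 to 17.3 ± 0.893 CPM (0.85). Falls in this role were those of Xirp1 (-1.70, SE 0.458), Des, Ttn (-1.19) and Actn3 (-0.72). Des read 220, 209 and 208 CPM uninduced and 79.7, 70.6 and 78.5 induced (-1.48, SE 0.0554), with no overlap.

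**Figure D3:**
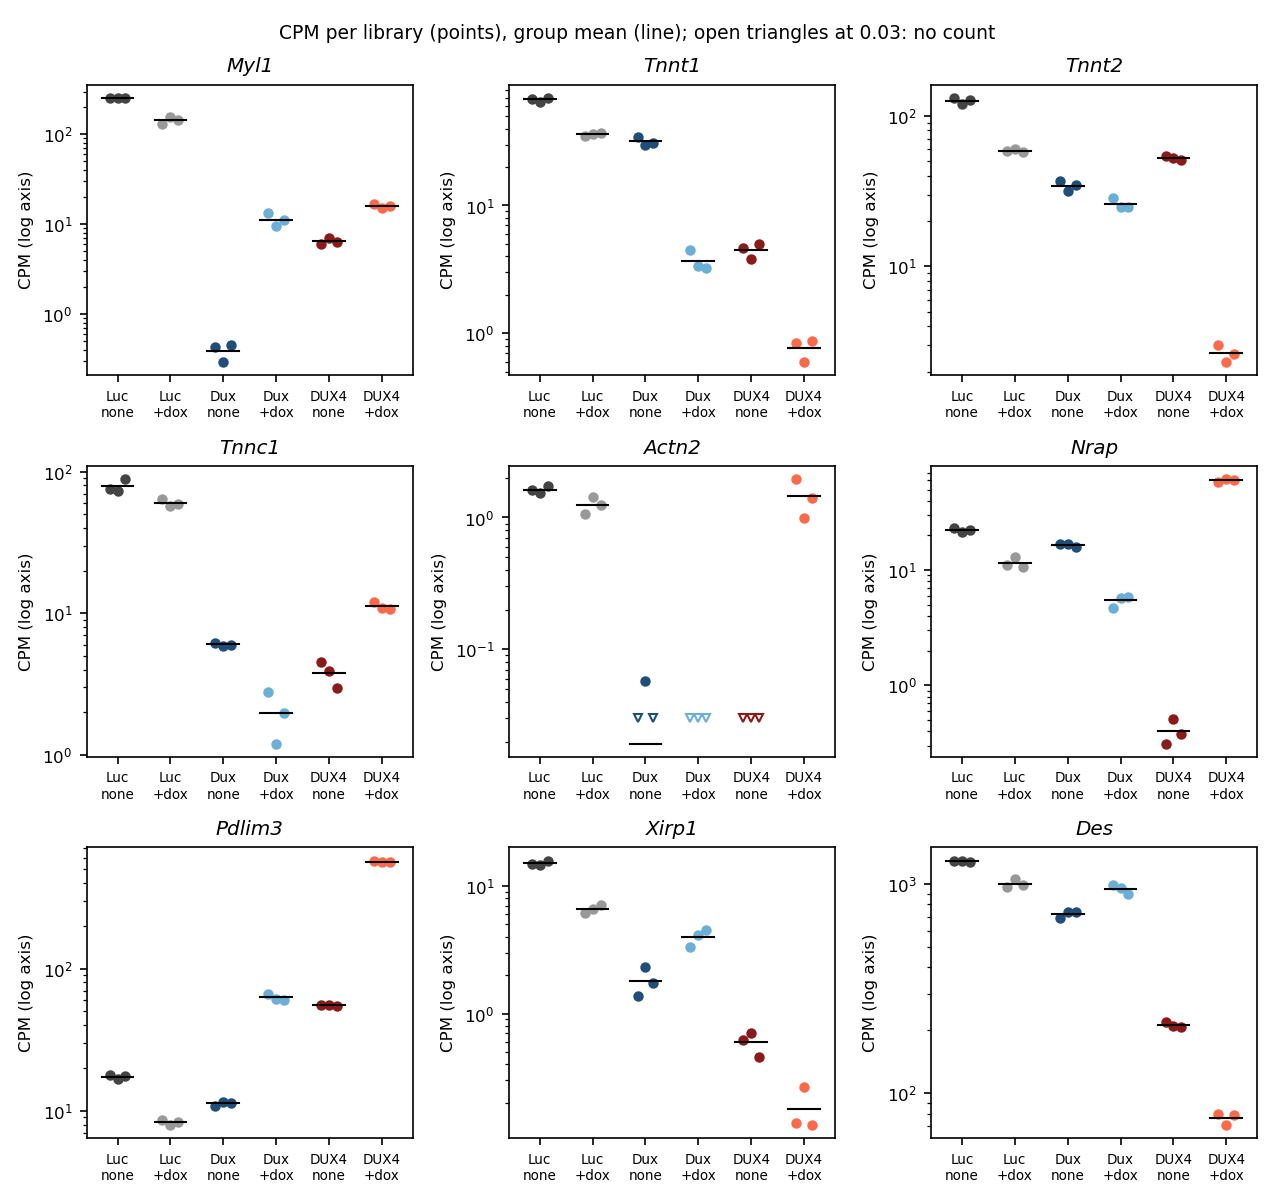
Each panel gives CPM (log axis) of 1 gene in every library (points) with the group mean (line), and libraries with no count are drawn as open triangles at 0.03. Under human DUX4, Nrap goes from a mean of 0.401 to 60 CPM and Actn2 from no count to 1.45 CPM. Pdlim3 and Myl1 rise in both factor lines, and Tnnt2 falls to 2.64 CPM under human DUX4.

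Of the 14 thin-filament genes 3 rose and 7 fell under human DUX4, against 34.4% higher and 33.1% lower of all genes tested. Tnnt2 fell most, from 54.1, 52.4 and 50.8 CPM to 2.99, 2.31 and 2.61 (-4.31, SE 0.0973, adjusted p = 8.6e-18). Acta1 went from 7.88, 7.37 and 8 CPM to 0.974, 1.85 and 1.07 (-2.56, SE 0.196, adjusted p = 5.89e-10). Tnnt1 went from 4.63, 3.78 and 4.98 CPM to 0.835, 0.594 and 0.87 (-2.53, SE 0.206, adjusted p = 1.53e-09). In all 3 genes every induced library was below every uninduced one. Tpm1 (-1.78), Tpm2 (-1.26), Tnni2 (-1.35) and Tpm3 (-0.26) also fell. Tpm2 went from 392, 377 and 375 CPM to 160, 159 and 158. Averaged over all 18 libraries Tpm2 was the highest of this role per kb, but in this line Tpm1 was above it. Tnni1, slow troponin I, rose from 1.22 ± 0.25 to 3.72 ± 0.52 CPM (1.59, SE 0.184) and Tnnc1, shared by slow and cardiac muscle, from 3.79 ± 0.789 to 11.2 ± 0.719 CPM (1.55, SE 0.159). Neb, nebulin, rose from 0.738 ± 0.105 to 1.68 ± 0.571 CPM (1.19, SE 0.325).

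Thick-filament and calcium genes changed in few cases. Myl1 read 5.94, 7.05 and 6.26 CPM uninduced and 16.6, 15 and 15.9 induced (1.30, SE 0.11, adjusted p = 2.82e-09). Myl4, the embryonic and atrial light chain, fell from 2.59 ± 0.695 to 0.965 ± 0.44 CPM (-1.40, SE 0.288). These were the only called genes among 11 tested in the thick filament, and 3 of the 11 passed the filter on human DUX4 libraries alone. Mylpf was not called, at 1.56, 2.05 and 2.34 CPM uninduced and 2.23, 1.58 and 2.01 induced, with overlapping groups and a log2 fold change of -0.02 (SE 0.222). Atp2a1 was the 1 calcium or energy gene called, read at 1.19, 1.41 and 1.43 CPM uninduced and 3.27, 3.89 and 4.15 induced (1.49, SE 0.186, adjusted p = 6.93e-07). Atp2a1 overlaps the antisense gene Rabep2, at 19.4 ± 1.22 CPM uninduced and 24.6 ± 1.54 induced, and no source used here states whether strand was used in counting. Casq2 (0.30, SE 0.354) and Ryr1 (-0.86, SE 0.493) were not called. Neither were Cacna1s, Ckm, Tcap, Smpx, Ldb3, Myom1, Actc1, Tnnt3, Tnnc2, Tmod1, Mybpc1, Mybph, Myh1, Myh2, Myh3, Myh4, Myh7 and Myh8, most of which did not pass the filter on the libraries of this line.

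**Figure D4:**
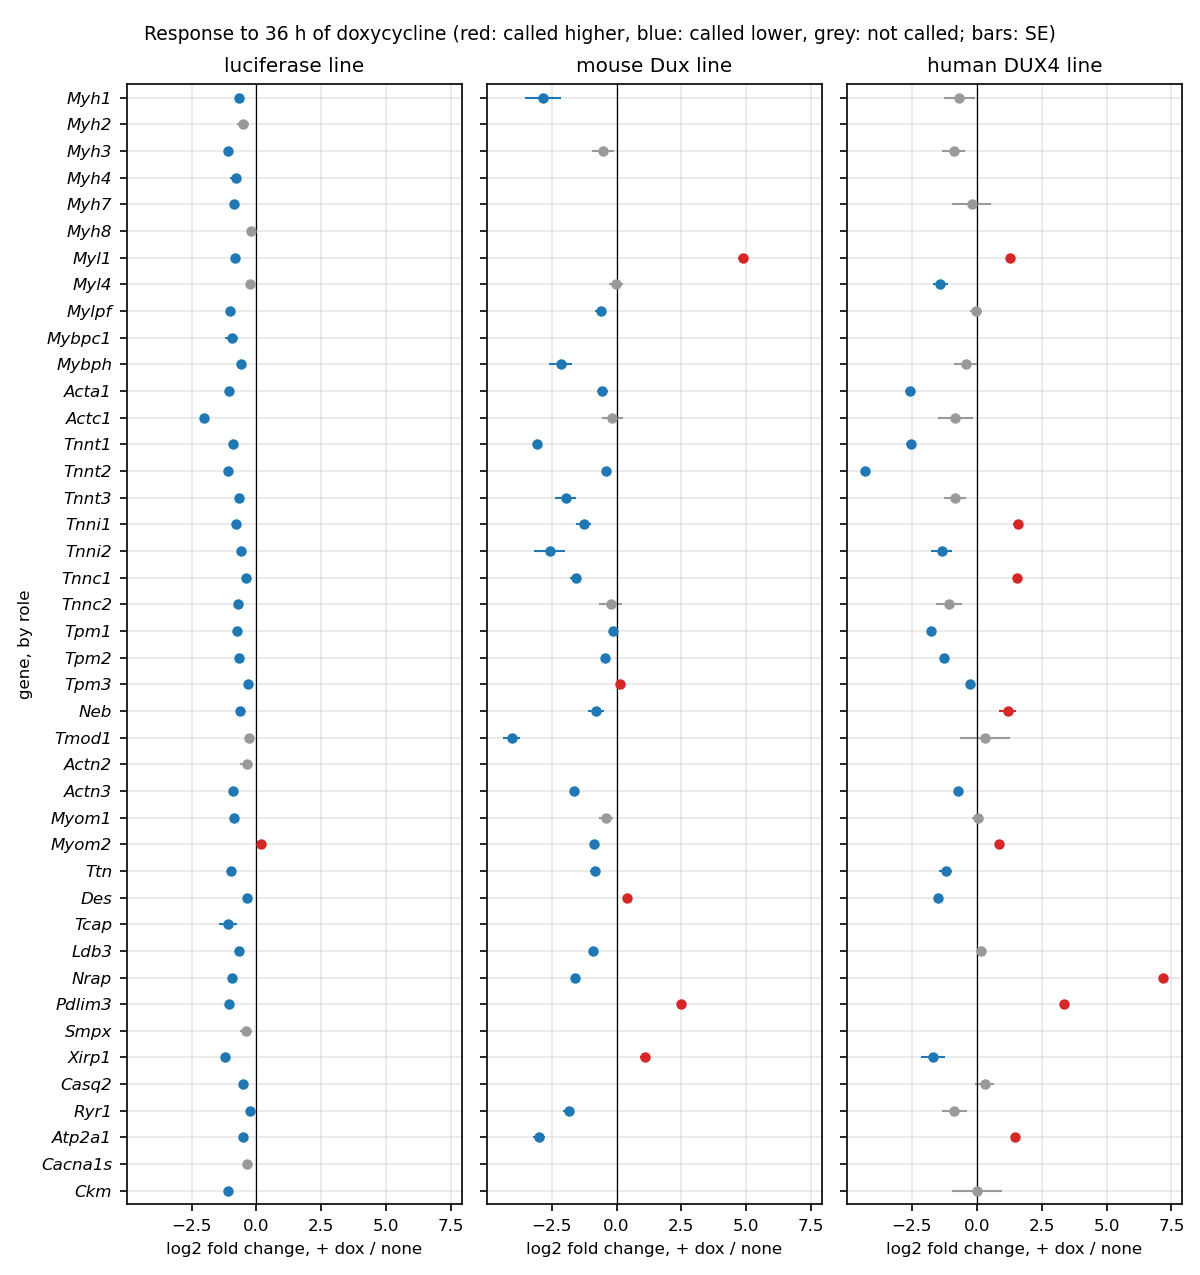
Points give the log2 fold change of induced over uninduced libraries with its SE for the tested genes, ordered by role, in the luciferase, mouse Dux and human DUX4 lines, and genes with 0 to 3 counts in a group are not drawn. The luciferase panel lies left of 0 for 34 called genes, the mouse Dux panel mostly left with Myl1 at 4.87, and the human DUX4 panel on both sides with Nrap at 7.19.

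The responses to the 2 factors were compared by the interaction contrast, mouse Dux minus human DUX4. It was positive for 9 genes and negative for 12, against 32.9% and 32.3% of all genes. With scaling by library size alone, 38.8% of the calls over all genes were positive in place of 50.4%, and 9 members were positive and 15 negative. Genes called in both lines overlapped in part. Myl1 and Pdlim3 rose in both, 40% of the 5 genes that rose under mouse Dux and 22.2% of the 9 under human DUX4. Acta1, Actn3, Tnni2, Tnnt1, Tnnt2, Tpm1, Tpm2 and Ttn fell in both, 33.3% of 24 and 66.7% of 12. Of all tested genes 34.1% rose and 34.8% fell under mouse Dux and 34.4% rose and 33.1% fell under human DUX4, and nothing is read from the overlap against these shares. Nrap, Atp2a1, Tnnc1, Tnni1, Neb and Myom2 fell under mouse Dux and rose under human DUX4. Des, Xirp1 and Tpm3 did the reverse. Under mouse Dux the call for Neb was lost when single libraries were left out, and Tpm3 changed direction with scaling by library size alone. Even where both responses had the same sign their sizes differed: the interaction was 3.57 for Myl1 (SE 0.271), -0.88 for Pdlim3 (SE 0.0727), 3.92 for Tnnt2 (SE 0.126), 2.01 for Acta1 (SE 0.299) and 1.63 for Tpm1 (SE 0.0637). The interaction for Tnnt1 was -0.56 (SE 0.282, adjusted p = 0.107) and was not called.

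Many of these genes fell with doxycycline in the luciferase line, so each response was also set against the luciferase response. A positive value there can be a smaller fall, and both contrasts share the 6 luciferase libraries, whose starting levels were far higher. For mouse Dux, 10 genes were higher and 13 lower relative to the luciferase response, against 30.4% and 29.5% of all genes. With scaling by library size alone 32.2% of the calls over all genes were higher in place of 50.7%, and 8 members were higher and 15 lower. Of the 10, Myl1, Pdlim3, Xirp1, Des and Tpm3 rose in their own line, Actc1 was not called in it, and Acta1, Tnnt2, Tpm1 and Tpm2 fell less than in the luciferase line. The call for Acta1 was at the threshold (adjusted p = 0.0498). The largest negative values belonged to Mybpc1, Tmod1 (-3.75, SE 0.36), Atp2a1 (-2.45, SE 0.248) and Tnnt1 (-2.18, SE 0.132). For human DUX4, 12 genes were higher and 7 lower, against 28.3% and 26.7% of all genes. The 12 were the 9 that rose in that line together with Mylpf, Myom1 and Ldb3, which were not called in it. The 7 were Tnnt2 (-3.21), Tnnt1 (-1.62), Acta1 (-1.49), Myl4 (-1.14), Des (-1.13), Tpm1 (-1.02) and Tpm2 (-0.59).

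Per kb of exon, the leading isoform gene of a family differed between groups. These shares were not tested. They depend on the merged length of all annotated exons, 7752 bases for Tnnt2, 2204 for Tnnt1 and 1583 for Tnnt3. By counts alone Tnnt2 led troponin T in every group. It had 6089 counts in uninduced luciferase libraries, against 4449 for Tnnt3. In uninduced mouse Dux libraries it had 1520, against 1403 for Tnnt1. The troponin T family, per kb of exon, was mostly fast Tnnt3 in uninduced luciferase libraries (55.5% ± 2.14, SD, n = 3), mostly slow Tnnt1 in uninduced mouse Dux libraries (72.8% ± 1.82) and mostly Tnnt2 in uninduced human DUX4 libraries (72.4% ± 2.83). After mouse Dux induction Tnnt1 made up 31.7% ± 1.96 and Tnnt2 63.8% ± 3.11. After human DUX4 induction Tnnt2 made up 34.8% ± 5.71, so that the 3 genes had like shares per kb. By counts Tnnt2 still led there: of 173 counts of the family in 3 libraries, 117 were Tnnt2, 34 Tnnt1 and 22 Tnnt3. Luciferase cells with doxycycline held nearly the mix they had without it (Tnnt3 60.3% ± 0.827). Tropomyosin shares per kb also differed under human DUX4, with Tpm1 going from 52% ± 0.266 to 35% ± 0.27 and Tpm3 from 19.6% ± 0.102 to 37.7% ± 0.07. The level of Tpm3 itself fell there, from 550 ± 5.41 to 458 ± 7.21 CPM, and Tpm1 and Tpm2 fell by more (-1.78 and -1.26 against -0.26). Under mouse Dux, Tpm3 went from 22.2% ± 0.16 to 27.5% ± 0.155 and Tpm1 from 46.5% ± 0.793 to 47% ± 0.736. Troponin C was mostly Tnnc1 in every group, at 81.6% ± 7.42 before and 96.7% ± 3.15 after human DUX4 induction. Tnnc2 overlaps the antisense gene Ube2c, a cell-cycle gene at 80.6 ± 5.02 CPM in uninduced and 16.7 ± 0.414 in induced human DUX4 libraries, and the part of its reads in the Tnnc2 counts was not tested.

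**Figure D5:**
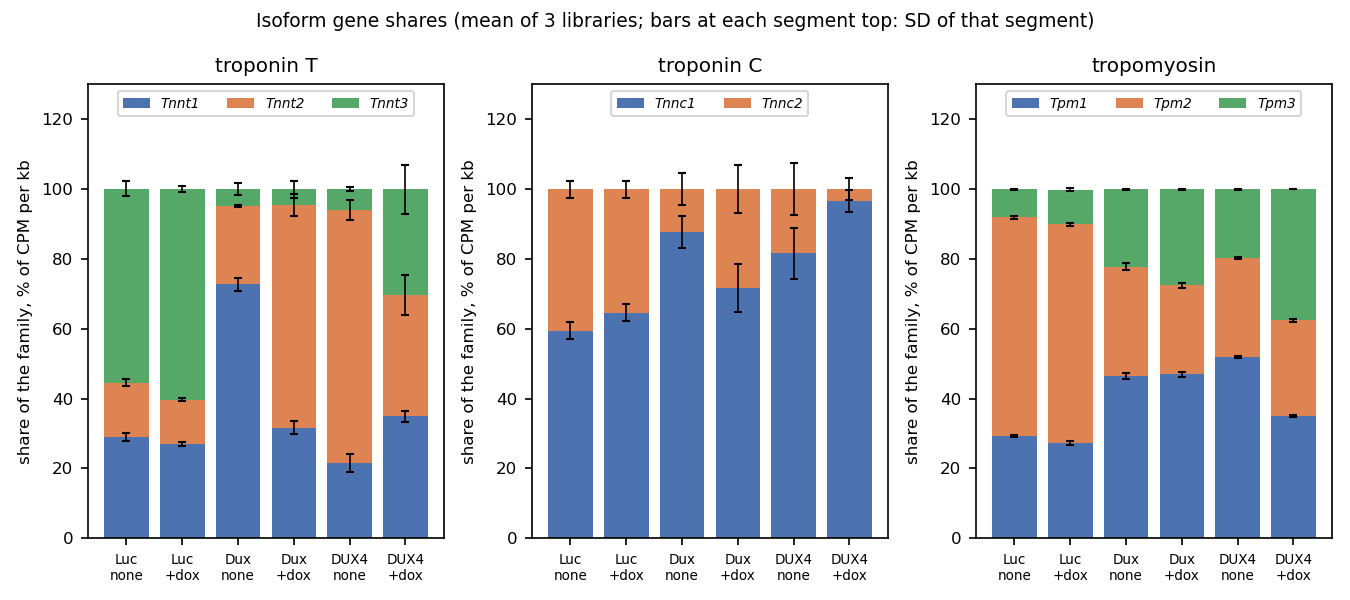
Stacked bars give each isoform gene's mean share, in percent of the family's CPM per kb, in the 6 groups (3 libraries each, error bars at segment tops are the SD of that segment). Per kb, troponin T is led by Tnnt3 in luciferase cells. Tnnt1 leads at 72.8% in uninduced mouse Dux cells and Tnnt2 at 72.4% in uninduced human DUX4 cells. By counts alone Tnnt2 leads in every group. Tpm3 reaches 37.7% of tropomyosin under human DUX4, where the CPM of all 3 tropomyosin genes fell.

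Genes outside the 46 that serve the same structures changed in both directions. The shares of all tested genes for these counts are 34.1% higher and 34.8% lower under mouse Dux and 34.4% and 33.1% under human DUX4, and nothing particular to the lists is read from counts near them. Of 28 tested sarcomere genes outside the 46, 15 fell and 7 rose under mouse Dux (median -1.05), and 10 fell and 6 rose under human DUX4 (median -0.51). Among the largest called changes under mouse Dux were those of Klhl40, a stabiliser of nebulin (-3.94, SE 0.448), and the titin-binding stress gene Ankrd1 (3.05, SE 0.065), which went from 204 ± 8.01 to 1682 ± 77.1 CPM. Under human DUX4 they were those of Klhl31, whose 27 counts went to 0 (at least 8.92-fold lower), Myoz3 (3.72, SE 0.484) and Synpo2l (-3.03, SE 0.24). Of 20 tested excitation-contraction genes outside the 46, 6 rose and 8 fell under mouse Dux and 10 rose and 6 fell under human DUX4. Mrln (-3.70, SE 0.367), a micropeptide inhibitor of the calcium pump, Jsrp1 (-2.49, SE 0.115) and triadin, Trdn (-1.74, SE 0.249), led the falls under mouse Dux. The sodium channel Scn4a went from 3 counts to 64 under human DUX4, a ratio of 21.5 (95% exact interval 7.04 to 107), while Stac3 (-2.93, SE 0.387), which couples the voltage sensor to its channel, and Jph2 (-1.98, SE 0.0634), which ties the 2 membranes together, fell.

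The myogenic regulators and fusion genes changed in both directions. For this and the other lists here, 34.1% of all tested genes rose and 34.8% fell under mouse Dux. Under human DUX4 34.4% rose and 33.1% fell, and nothing is read from counts near these shares. Of 16 tested, 8 rose and 6 fell under mouse Dux (median 0.14), and 7 rose and 5 fell under human DUX4 (median 0.36). Myod1, which determines the muscle lineage, went from 26.2 ± 0.403 to 3.67 ± 0.907 CPM under human DUX4 (-2.84, SE 0.124) and from 123 ± 6.11 to 88.1 ± 10.6 CPM under mouse Dux (-0.48, SE 0.0768). Myog was already low and fell in both (-1.50, SE 0.415 and -2.11, SE 0.342). Under mouse Dux, Mef2c went from 0 to 34 counts (at least 12-fold higher), Tmem8c fell (-2.74, SE 0.231) and the inhibitor Id1 rose (2.58, SE 0.113). Non-muscle and smooth-muscle relatives of the sarcomere genes differed in count between the factors: 10 of 19 tested rose and 3 fell under mouse Dux, and 3 rose and 13 fell under human DUX4. With scaling by library size alone, 31.6% of the mouse Dux calls over all genes were higher in place of 49.5%. The counts of this list under that scaling are not given. Smooth muscle alpha-actin, Acta2, fell under human DUX4 (-2.59, SE 0.0721). Actg2, smooth muscle gamma-actin, rose under mouse Dux (2.00, SE 0.0863). Summed smooth muscle markers went from 2999 to 3062 CPM to 3611 to 4371 CPM under mouse Dux, highest in induced library 1, and from 2321 to 2382 CPM to 600 to 617 CPM under human DUX4. As a share of all counts, without TMM factors, they held 0.328%, 0.324% and 0.32% in uninduced mouse Dux libraries. In the induced ones they held 0.392%, 0.342% and 0.324%, so that these groups overlapped. Myoblast markers went from 2155 to 2232 CPM to 2122 to 2199 CPM and from 1377 to 1438 CPM to 1280 to 1319 CPM. As a share of all counts they went from 0.231%, 0.237% and 0.237% to 0.196%, 0.2% and 0.19% under mouse Dux, without overlap. Of 10 myoblast markers 3 rose and 7 fell under mouse Dux (median -0.45), and 2 rose and 7 fell under human DUX4 (median -1.40). Summed cardiac markers went from 19.6 to 21.4 CPM to 31.9 to 38.2 CPM under mouse Dux. Under human DUX4 they went from 24.1 to 29.2 CPM to 45 to 46.2 CPM. Of 11 cardiac markers 5 were tested. Of those, 2 rose and 1 fell under mouse Dux (median -0.44), and 2 rose and 2 fell under human DUX4 (median 0.00). Markers of other cell types went from 53.6 to 56.7 CPM to 89.6 to 101 CPM under mouse Dux, where Adipoq, Plin1 and Rbfox3 were at 0, and from 51.4 to 53.5 CPM to 64.9 to 73.6 CPM under human DUX4, where Adipoq, Epcam, Plin1 and Ptprc were at 0. Of 12 such markers 5 were tested, of which 4 rose under mouse Dux and 2 under human DUX4. Sox9, a cartilage factor, rose under mouse Dux (0.90, SE 0.0682), and the epithelial keratin Krt8 had 2 counts before and 18 after, a ratio of 9.54 (95% exact interval 2.28 to 84.8). Under human DUX4 the macrophage marker Cd68 went from 1.74 ± 0.0532 to 20.9 ± 1.64 CPM (3.58, SE 0.172), and the neuronal marker Rbfox3 from 0 to 54 counts, at least 18.2-fold higher. These 4 markers were chosen after their values were seen. The part of any other cell type in the responses was not tested.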

How the data were processed

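RNA of 18 libraries (3 clonal C2C12 lines, each with and without doxycycline, 3 cultures per group) was sequenced from polyadenylated RNA. The authors deposited whole-number counts per gene, without normalization. The submitters' processing notes name CASAVA, TopHat2 2.0.12, Bowtie2 2.2.3 and the mm10 build. How genes were counted, on which annotation and with or without strand is not stated in these sources. Columns were tied to samples through their titles.

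Genes were filtered by edgeR's filterByExpr on the 6 groups, leaving 13602 of 24028. Counts were scaled by TMM and fitted in 1 quasi-likelihood model of 6 group means (edgeR 4.0.16 in R 4.3.3), with Benjamini-Hochberg adjustment over all tested genes. The biological coefficient of variation was 6.25%, and p-values measure the spread between cultures of 1 clone. SE was the absolute log2 fold change divided by the square root of F. The procedure was tested on simulated data. The 9 comparisons were the 3 responses, the 3 differences between responses and the 3 differences between uninduced lines. A group with 0 counts was set at a floor of 3 counts, and one with 1 to 3 counts got an exact binomial ratio interval. Exon lengths came from GENCODE and promoters from RefSeq.

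The members and lists were chosen with earlier results of these data known. Per-library values were given for genes called with a log2 fold change of at least 2 in a response and for the 5 largest called differences in each comparison of uninduced lines. They were also given for the gene of each role with the highest level per kb, averaged over all 18 libraries. From each other list up to 3 genes with the largest called change were named, except that 1 result is not reported here; Cdh5, Nkx2-5, Myh6, Sox9, Krt8, Cd68, Rbfox3, Ryr1 between uninduced lines, Acta2 and Actg2 and genes repeated across comparisons were named after their values were seen. Alternatives were median-of-ratios scaling, library size alone, no filter on low counts, DESeq2 1.42.0, a fit to only the groups compared, a replicate block and leaving out each library.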

Additional observations from a re-analysis of the deposited data

Results flagged for a closer look

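The genes here were called in opposite directions in 2 lines, and the difference between the lines was itself called by the edgeR interaction test. Between the mouse Dux and human DUX4 responses the log2 difference was -8.80 for Nrap, -4.47 for Atp2a1, -3.12 for Tnnc1, -2.86 for Tnni1, -1.99 for Neb and -1.72 for Myom2, all of which fell under mouse Dux and rose under human DUX4. It was 2.79 for Xirp1, 1.88 for Des and 0.41 for Tpm3, which did the reverse. The opposite directions of Neb and Tpm3 are the less secure ones. Under mouse Dux the call for Neb was lost when single libraries were left out, and Tpm3 changed direction with scaling by library size alone.

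Against the luciferase response, the mouse Dux response differed by 5.68 for Myl1, 3.54 for Pdlim3, 2.29 for Xirp1, 0.75 for Des and 0.48 for Tpm3, which fell with doxycycline in the luciferase line and rose under mouse Dux. Myom2 did the opposite, at -1.06, but its rise in the luciferase line was not called under several alternatives. The human DUX4 response differed from the luciferase response by 8.15 for Nrap, 4.42 for Pdlim3, 2.36 for Tnni1, 2.11 for Myl1, 2.03 for Atp2a1, 1.94 for Tnnc1 and 1.82 for Neb, each of which fell in the luciferase line and rose under human DUX4. Both sets of values share the luciferase libraries.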

How the results depend on the processing

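Of 216 gene results, 16 lost their call or changed direction under some alternative and 14 did so when single libraries were left out. The 1 reversal was Tpm3 under mouse Dux, at -0.09 with scaling by library size alone. The count of genes that rose in the luciferase line, 1 in the edgeR fit, was 0 with median-of-ratios scaling, with no filter on low counts, with DESeq2 and with the replicate block, and ranged from 0 to 1 when single libraries were left out; the gene is Myom2. With library size alone, the share of calls that were higher, over all genes, went from 49.5% to 31.6% under mouse Dux, from 50.4% to 38.8% for mouse Dux minus human DUX4 and from 50.7% to 32.2% for mouse Dux minus luciferase. The cause was not tested. The count of members that fell under mouse Dux ranged from 20 to 24 with single libraries left out and was 19 in a fit to the 2 groups alone.

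Deviations of same-numbered induced and uninduced libraries correlated at 0.219, 0.105 and 0.08 in the mouse Dux line and between -0.031 and 0.031 in the others. Differently numbered libraries of the mouse Dux line gave -0.165 to 0.093, negative wherever a library numbered 1 took part. The labels state separate cultures, and the numbers were not taken as pairs. Whether the mouse Dux libraries numbered 1 share an effect was not tested. With the replicate block 5 members rose and 22 fell under mouse Dux, and 5 gene results lost their call. Counts of 0 to 3 in a group limited 11 members under mouse Dux and 8 under human DUX4.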
